A study of Mus musculus with 2 samples.

Results

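The GATA factors and their Friend of GATA cofactors were examined as 8 genes of the 23365 in the authors' deposited table, matched by gene symbol, and all 8 symbols had a row. They are the 6 transcription factor genes Gata1, Gata2, Gata3, Gata4, Gata5 and Gata6, and the 2 cofactor genes Zfpm1 and Zfpm2. RNA sequencing was done on mouse embryonic fibroblasts, mesenchymal cells grown out of embryos, with 1 wild-type library and 1 library of cells in which TET1 and TET2, enzymes that oxidize 5-methylcytosine in DNA, were knocked out. Strain, embryo age, sex, passage number and the way the genes were knocked out were not given in the sources used here. In the table, 2 conditions are named A and B, which match neither genotype label, so A and B stand for these conditions below, B/A is their ratio, and no direction is tied to a genotype. The level in each condition is not used here, which leaves for each gene its mean over both conditions, the ratio and the authors' p-values. With 1 library per genotype there is no replicate error for any value. Fewer cells that express a gene and less RNA per cell cannot be told apart in such bulk samples.

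GATA factors are zinc finger proteins named after the short DNA word they bind. Their fingers form a conserved pair, of which the carboxy-terminal one makes the main contact with DNA and the amino-terminal one also binds Friend of GATA proteins. Gata1, Gata2 and Gata3 are best known from blood cells, although Gata2 and Gata3 also act in endothelium, fat precursors, kidney, placenta and epithelia. Gata4, Gata5 and Gata6 act in heart, endoderm and mesoderm. Friend of GATA proteins do not need to bind DNA themselves and recruit corepressors such as the NuRD and CtBP complexes to GATA sites.

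The mean normalized counts summed to 58127871 over all genes, and 12401 genes had a mean of at least 50, the minimum used here for reading a ratio. All 14 fibroblast marker genes reached the minimum mean, as did 12401 of the 23365 genes in all, with Col1a1 and Fn1 at means of 312018 and 550534. These means pool A and B, and the markers Dcn and Fap had log2(B/A) values of 5.66 and 4.20. The targeted genes Tet1 and Tet2 have log2(B/A) values of -1.82 (adjusted p = 0.851) and -0.74 (adjusted p = 1) per the authors' deposited table. Tet3, which is not named among the knocked-out genes, has one of -0.63. These values leave the genotype of A and B unknown. A low value is read with care, since Tdg, a DNA glycosylase gene in broad use, is listed at a mean of 0.527, while the other genes of a 16-gene housekeeping list had means of at least 1348.

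The family was present in these fibroblasts through 3 GATA factors and both cofactors. Per kilobase of the longest coding transcript, Gata2 had the highest level of the family when both conditions were averaged, with a mean normalized count of 828. Zfpm2 followed at 497, Gata6 at 430.3, Zfpm1 at 373 and Gata3 at 169.8 per kilobase. On this per-kilobase scale the 5 genes exceeded between 53.2% (Gata3) and 74.1% (Gata2) of 19340 genes with a coding transcript length. Genes listed at 0 count among these, and Gata1, at a mean normalized count of 0.474, already exceeded 23.2% of them. This order is that of means over A and B and has no error attached, as the libraries are not replicated. The ratios of Gata2 and Gata6 lie toward A and those of Gata3, Zfpm1 and Zfpm2 toward B, so the order within either condition can differ, and it was not analysed here.

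**Figure D1:**
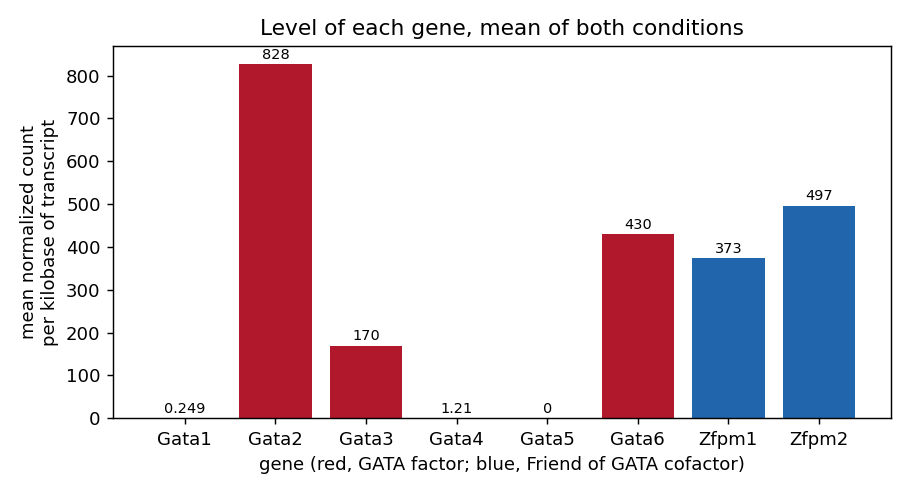
Mean normalized count over both conditions per kilobase of the longest coding transcript (vertical axis, linear from 0) for each of the 6 GATA factor genes and 2 cofactor genes, with the value above each bar and no error bars because there are no replicates. In this mean of A and B, which need not give the order within either one, Gata2 is highest at 828, and Gata1, Gata4 and Gata5 lie at 1.21 or below.

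The other 3 factors were at or near 0. Gata4, a factor of heart, gonad and endoderm, had a mean normalized count of 4.11 per the authors' deposited table, with a 3.33-fold ratio toward B at this low mean (adjusted p = 1). Gata1, the factor of red cells, megakaryocytes and mast cells, had a mean of 0.474 and is listed at 0 in B by the authors' deposited table, so no fold is given. Gata5, of heart and endoderm, is listed at 0 in both conditions. These values were too low for a ratio to be read.

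Promoter sequences show how the GATA and cofactor genes with different levels and ratios differ in CpG content, the base pair step on which DNA methylation and TET enzymes act. RefSeq sequences of build GRCm38.p6 were found for 5 of the 8 genes, with 6 start sites, because Gata2 has starts 4773 bases apart. The 250 bases before the start are printed 5′ to 3′ on the gene's strand for the genes that differed by 2-fold or more (Gata2, Gata3 and Zfpm1), and for Gata1 as the member with the lowest mean above 0. Capitals mark each CpG.
Gata2, upstream start, chr6:88193641-88193890, plus strand: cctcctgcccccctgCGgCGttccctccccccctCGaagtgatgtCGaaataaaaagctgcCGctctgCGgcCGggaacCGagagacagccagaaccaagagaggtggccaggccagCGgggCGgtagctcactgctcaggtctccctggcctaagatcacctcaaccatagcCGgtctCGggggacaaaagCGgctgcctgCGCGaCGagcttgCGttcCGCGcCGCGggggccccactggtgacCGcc
Gata2, downstream start, chr6:88198414-88198663, plus strand: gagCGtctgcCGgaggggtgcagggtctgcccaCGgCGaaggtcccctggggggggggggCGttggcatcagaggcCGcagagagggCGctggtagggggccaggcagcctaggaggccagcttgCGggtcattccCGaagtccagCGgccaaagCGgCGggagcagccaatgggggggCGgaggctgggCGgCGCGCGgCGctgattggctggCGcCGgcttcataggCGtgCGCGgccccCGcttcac
Gata3, chr2:9878601-9878850, minus strand: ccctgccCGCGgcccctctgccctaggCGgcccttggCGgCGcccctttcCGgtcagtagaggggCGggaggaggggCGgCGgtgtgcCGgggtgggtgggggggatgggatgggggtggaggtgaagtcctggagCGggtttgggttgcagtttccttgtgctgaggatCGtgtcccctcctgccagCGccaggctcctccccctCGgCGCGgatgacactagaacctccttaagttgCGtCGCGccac
Zfpm1, chr8:122281891-122282140, plus strand: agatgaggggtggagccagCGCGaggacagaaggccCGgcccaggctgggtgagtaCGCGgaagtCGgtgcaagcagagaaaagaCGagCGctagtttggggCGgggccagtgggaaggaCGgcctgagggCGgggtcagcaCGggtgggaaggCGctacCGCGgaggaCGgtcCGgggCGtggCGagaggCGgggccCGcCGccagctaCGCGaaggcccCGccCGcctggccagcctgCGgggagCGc
Gata1, chrX:7967911-7968160, minus strand: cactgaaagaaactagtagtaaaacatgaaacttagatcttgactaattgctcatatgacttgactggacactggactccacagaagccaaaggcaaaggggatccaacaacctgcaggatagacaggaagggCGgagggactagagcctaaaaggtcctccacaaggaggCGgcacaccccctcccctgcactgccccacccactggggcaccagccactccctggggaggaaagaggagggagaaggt

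The Zfpm1 window held 28 CpGs, more than 92.4% of 32851 mouse promoter windows of the same length. The upstream and downstream windows of Gata2 held 22 and 24, that of Gata3 held 19 and that of Gata5 held 22, against a median of 6 over all windows. Gata1, on the X chromosome, held 2 CpGs, with an observed to expected CpG ratio of 0.11 against 0.63 for Gata3, 0.78 and 0.74 for Gata2, 0.72 for Gata5 and 0.90 for Zfpm1. Gata5 and the upstream start of Gata2 held equal numbers of CpGs, and the per-kilobase levels of these genes were 0 and 828. A link between CpG content and level was not tested, and Gata4, Gata6 and Zfpm2 had no window. The GATA binding word, searched on both strands with overlapping matches counted, and taken as AGATAA or AGATAG, or as TGATAA or TGATAG, was found in 0 of the 6 windows and in 26.5% of all windows. That says only that these letters are not in these 250 bases.

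The GATA factors did not share a direction. Gata2, known for blood stem cells and as a brake on fat cell formation, was 2.51-fold higher in A per the authors' deposited table, a log2(B/A) of -1.33 at a mean normalized count of 2957 (raw p = 0.0425, adjusted p = 0.713). Gata3, known for helper T cells, mammary epithelium, kidney and placenta, was 2.97-fold higher in B per the authors' deposited table, a log2(B/A) of 1.57 at a mean of 546 (raw p = 0.0554, adjusted p = 0.847). Gata6, of endoderm and heart, was 1.55-fold higher in A per the authors' deposited table, a log2(B/A) of -0.63 at a mean of 1392 (adjusted p = 1). Gata2 and Gata3 had the highest and the lowest mean over both conditions of these 3 factors.

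Both cofactor genes had ratios toward B. Zfpm1, the Friend of GATA gene needed for red cells and megakaryocytes, was 2.25-fold higher in B per the authors' deposited table, a log2(B/A) of 1.17 at a mean normalized count of 1265 (raw p = 0.0961, adjusted p = 1). Zfpm2, needed for heart and gonad development, was 1.46-fold higher in B per the authors' deposited table, a log2(B/A) of 0.55 at a mean of 2876 (adjusted p = 1).

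A log2(B/A) of 1 or more in either direction, the size rule used here, was reached by 3 of the 5 genes at the minimum mean, Gata3 and Zfpm1 toward B and Gata2 toward A. Over all 12401 genes at that mean, 17.9% met the rule, 8.31% toward B and 9.6% toward A. The median log2(B/A) of the 5 genes was 0.55, against -0.04 over all genes, and the median size was 1.17 against 0.34. A ratio at least as low as that of Gata2 was listed for 6.54% of genes at the minimum mean, and one at least as high as those of Gata3 and Zfpm1 for 5.05% and 6.94%. Counting both directions, ratios at least as large as those of Gata2, Gata3 and Zfpm1 were listed for 12.6%, 9.94% and 14.7% of these genes. For Gata6 and Zfpm2 the shares in both directions were 29.0% and 33.5%. Among genes with a mean within 1.5-fold of their own, the shares for Gata2, Gata3 and Zfpm1 were 6.21%, 15.0% and 12.9%.

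Of the 7 genes of the family given an adjusted p by the authors' deposited table, none lay under 0.1, the cut-off used here for the authors' calls, where 2.29% of 17339 genes with a p-value were called. Gata2 was the 1 member with a raw p under 0.05 per the authors' deposited table, and 6.28% of all genes with a p-value lay under it. The authors' calls needed large ratios at these levels: among 2819 genes with a mean within 1.5-fold of that of Gata2, 71 were called and their log2(B/A) values were all 2.03 or more in size. Around Gata3, 89 of 1476 genes were called and the smallest size was 2.41, and around Zfpm1, 89 of 2317 were called and the smallest size was 2.14. The log2(B/A) values of Gata2, Gata3 and Zfpm1 were smaller in size than any that was called around their own means.

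**Figure D2:**
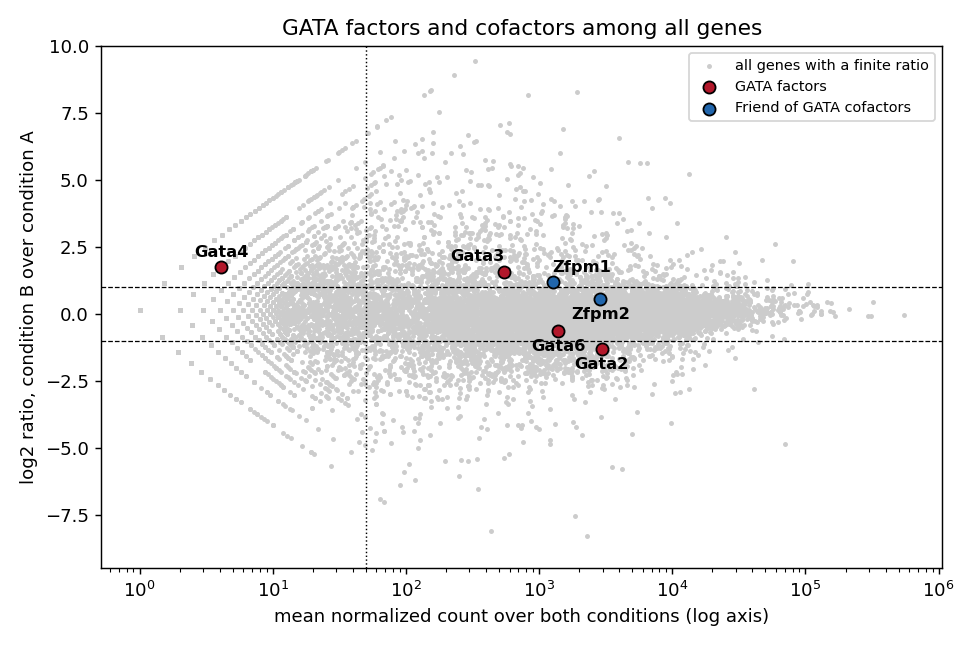
Log2 of the ratio B/A (vertical axis) against the mean normalized count over both conditions (horizontal log axis) for all genes with a finite ratio (grey), GATA factors (red) and cofactors (blue), with dashed lines at log2(B/A) values of 1 and -1 and a dotted line at a mean of 50. Gata2 (-1.33) lies below the lower line, Gata3 (1.57) and Zfpm1 (1.17) lie above the upper one, and Gata4 lies left of the minimum mean.

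The difference between the log2(B/A) values of a pair of genes does not depend on how the libraries were scaled, so the balance among the family was compared for the 10 pairs of the 5 genes. The Gata2 to Gata3 quotient differed most between the conditions, 7.46-fold in favour of Gata2 in A (2.90 on the log2 scale). Gata2 against Zfpm1 differed 5.66-fold and Gata3 against Gata6 4.61-fold. The ratios of Gata3 and Zfpm1 were the closest, 0.40 apart on the log2 scale, followed by Zfpm1 and Zfpm2 (0.62) and by Gata2 and Gata6 (0.70). These quotients come from 1 library per genotype and have no replicate check.

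Few genes beside the family members on the chromosome could be read. The 32 nearest RefSeq genes were taken, 2 on each side of each member by their order in GRCm38. Of these, 12 had a row and 6 reached the minimum mean, and no gene beside Gata5, Zfpm1 or Zfpm2 did. The size rule was met by 0 of the 6 and by 17.9% of all genes at that mean. So few genes cannot set the neighbours apart from other genes. Beside Gata2, the glycosyltransferase subunit gene Rpn1 had a log2(B/A) of -0.46 and the selenocysteine elongation factor gene Eefsec one of -0.75 per the authors' deposited table. Beside Gata3, the transcription initiation gene Taf3 had a log2(B/A) of -0.50 per the authors' deposited table, opposite in sign to Gata3. The deacetylase gene Hdac6 beside Gata1 lay at -0.53, the squalene synthase gene Fdft1 beside Gata4 at -0.32 and the DNA end resection gene Rbbp8 beside Gata6 at -0.74 per the authors' deposited table. Below the minimum mean, the glycosylase gene Neil2 beside Gata4 had a log2(B/A) of 3.08 at a mean normalized count of 35.9 per the authors' deposited table (adjusted p = 1).

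Counting in a library that does not mark strand adds a limit. RefSeq places 11 other genes over 7 of the 8 members, Gata4 being the member with none, and reads from overlapping genes cannot be told apart without strand. At Gata3, 4930412O13Rik had a mean normalized count of 4.01 and 9230102O04Rik is listed at 0 per the authors' deposited table, against 546 for Gata3. The other 9 overlapping genes had no row, so overlap could be looked at for Gata3 only.

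Trps1 stood apart among the other genes for proteins with a GATA-type zinc finger. Trps1, a repressor of GATA-driven transcription in cartilage and hair follicle, was 5.89-fold higher in A per the authors' deposited table, a log2(B/A) of -2.56 at a mean normalized count of 2326 (adjusted p = 0.0173). Of the 8 genes of this list at the minimum mean it was the 1 that met the size rule, against 17.9% of all genes at that mean. It was also the 1 that was called, toward A, where 0.871% of genes with a p-value were called. The list's median log2(B/A) was -0.08. Gatad2b, Mta1 and Gatad2a, NuRD subunit genes, had log2(B/A) values of -0.32, -0.15 and -0.11 per the authors' deposited table.

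Genes of the corepressors that Friend of GATA proteins recruit had ratios below the size rule. Of 15 NuRD and CtBP genes, all at the minimum mean, 0 met the size rule, against 17.9% of all genes at that mean. That share includes genes of far lower means, whereas the lowest mean of the 15 was 1633. A ratio as large as that of Gata2 was listed for 6.21% of genes near its mean of 2957, against 12.6% over all. Genes of like mean were not compared for this list, so the 0 does not set it apart. The authors' calls held 0 of them, against 2.29% of genes with a p-value. Their log2(B/A) values ran from -0.58 to 0.16, with a median of -0.18. Mta1, Mta2, Mta3, Gatad2a and Gatad2b are also in the zinc finger list above. The helicase genes Chd3 and Chd4 had log2(B/A) values of -0.58 and -0.35 per the authors' deposited table, and the corepressor gene Ctbp2 one of -0.36. The levels of these genes over both conditions were high, with a median mean normalized count of 8954.

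Among 19 partners of GATA4 in heart and mesoderm, DNA-binding factors and the coactivators Ep300 and Myocd, 13 reached the minimum mean. Of the 13, 2 met the size rule toward B and 1 toward A, against 8.31% and 9.6% of all genes at that mean. Their median log2(B/A) was 0.05. The orphan nuclear receptor gene Nr2f1 was 8.18-fold higher in A per the authors' deposited table (mean 1756, adjusted p = 0.00312). It was the 1 gene called, toward A, where 0.871% of genes with a p-value were called. Hand2, a bHLH factor gene of heart and limb bud, was 6.98-fold higher in B per the authors' deposited table without passing (mean 333, adjusted p = 0.144). Tbx5, a T-box gene of heart and forelimb, had a log2(B/A) of 1.69 (adjusted p = 0.810) and Nr2f2 one of -0.64 per the authors' deposited table. The heart factor gene Nkx2-5 had a mean normalized count of 1.53 and Nr5a1, of the gonad, is listed at 0.

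Blood targets were mostly at low levels, while the levels of blood partners were mixed. Of 16 blood partners of GATA1 and GATA2 with a row, 8 reached the minimum mean, as did 12401 of the 23365 genes in all. Of the 8, 1 met the size rule in each direction, against 8.31% of all genes at that mean toward B and 9.6% toward A. Their median log2(B/A) was -0.30. Erg, an ETS factor gene of blood stem cells and endothelium, was 49.1-fold higher in A per the authors' deposited table (mean 105.5, adjusted p = 0.0690), and its relative Fli1 was 2.84-fold higher in B there without passing (adjusted p = 1). Bcl11a and Tcf3 had log2(B/A) values of -0.68 and -0.59 per the authors' deposited table. Of 15 blood targets of GATA1 and GATA2, the integrin gene Itga2b was the 1 at the minimum mean, with a log2(B/A) of -0.82 per the authors' deposited table, and 4 were listed at 0, among them the globin genes Hba-a1, Hbb-b1 and Hbb-b2. Globin values are uncertain, as these genes have near-identical copies.

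Heart and endoderm targets of GATA4, GATA5 and GATA6 are described by single genes, because 1 gene of this list is not reported here and the list's counts and median are therefore not given. Tnnt2 (cardiac troponin T), Nppb (a natriuretic peptide) and Star (a cholesterol carrier) had log2(B/A) values of 1.88, 1.61 and 0.90 per the authors' deposited table. Of 16 targets and partners of GATA3, 4 reached the minimum mean, 1 met the size rule in each direction and 0 were called. Over all genes at that mean 8.31% met the rule toward B and 9.6% toward A, and 2.29% of genes with a p-value were called. The keratin gene Krt18 had a log2(B/A) of -2.29, the AP-2 gene Tfap2a one of 1.49, the receptor gene Ret one of -0.88 and the cyclin gene Ccnd1 one of 0.84 per the authors' deposited table. The target lists come from blood, heart, endoderm and epithelia and were not measured as targets in fibroblasts.

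**Figure D3:**
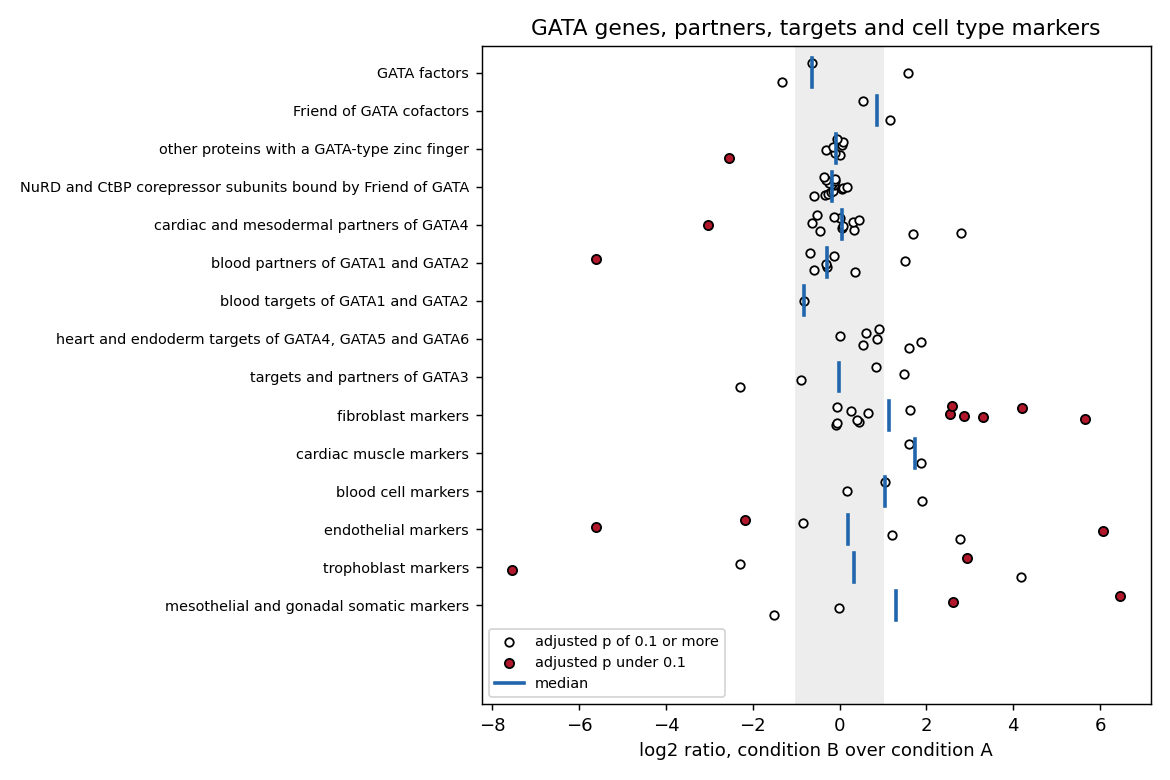
Log2 of the ratio B/A (horizontal axis) for each gene at a mean normalized count of at least 50, by list, with filled red points at an authors' adjusted p under 0.1, open points otherwise, blue bars at list medians (none for heart and endoderm targets, where 1 gene is not shown) and a grey band between -1 and 1. The 5 family members are open points, and Trps1 (-2.56) and Nr2f1 (-3.03) are filled points on the side of A.

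Markers of cell types in which GATA factors are best known were compared for the same libraries. Of 9 endoderm markers 0 reached the minimum mean, their means summed to 39.5, and Sox17, Ttr and Hnf4a are listed at 0. The 9 cardiac muscle markers summed to 323, of which Tnnt2 made up 187, and the myosin gene Myh6 had a mean of 0.474. Tnnt2 and Nppb were the 2 cardiac markers at the minimum mean. Both met the size rule toward B, with log2(B/A) values of 1.88 and 1.61, as did 8.31% of all genes at that mean. Among 11 blood cell markers, summing to 1674, Cd34 had a mean of 1538 and a log2(B/A) of 1.89 per the authors' deposited table (adjusted p = 0.222), the leukocyte gene Ptprc had a mean of 3.53, and Hba-a1, Hbb-b1 and Tyrobp are listed at 0. Of the blood cell markers 3 reached the minimum mean, and 2 met the size rule toward B, Cd34 and Csf1r. Csf1r had a log2(B/A) of 1.05 at a mean of 64.1, and Cd68, the third, one of 0.18 at a mean of 59.6. Cd34 is also made by some fibroblasts.

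Of 10 endothelial markers, summing to 2738, 6 reached the minimum mean, 3 met the size rule toward B and 2 toward A. Over all genes at that mean the shares were 8.31% toward B and 9.6% toward A. Emcn had a log2(B/A) of 6.06 (adjusted p = 0.0638), Kdr one of 2.78 (adjusted p = 0.1001) and Eng one of -2.19 (adjusted p = 0.0882) per the authors' deposited table, while the defining genes Pecam1 and Cdh5 had means of 9.80 and 8.43. Of 12 trophoblast markers, summing to 2671, Krt7 had a log2(B/A) of -7.54 (adjusted p = 6.35e-13), Prl2c2 one of 2.94 (adjusted p = 0.0327) and Eomes, without passing, one of 4.18 (adjusted p = 0.675) per the authors' deposited table, and Cdx2, Elf5 and Tpbpa are listed at 0. Prl2c2 has near-identical copies and is uncertain. Emcn and Eomes had means of 96.3 and 63.4, so such ratios leave few counts in A and their size is uncertain. Of 9 mesothelial and gonadal markers, summing to 2638, Upk1b, Lhx9 and Msln had log2(B/A) values of 6.46, 2.62 and -1.51 per the authors' deposited table, and Wt1 had a mean of 10.4.

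The fibroblast markers were split between genes that met the size rule toward B and genes that met it in neither direction. Of 14, 7 were of each kind and 0 met it toward A, against 8.31% toward B and 9.6% toward A over all genes at the minimum mean. Their median log2(B/A) was 1.14, and 6 were called, all toward B, where 1.42% of genes with a p-value were called. Dcn, Fap, Lum and Thy1 had log2(B/A) values of 5.66, 4.20, 3.29 and 2.88 per the authors' deposited table. The markers with the highest means, Fn1, Col1a1 and Col1a2, had log2(B/A) values of -0.06, -0.08 and -0.07 there. The part of these marker differences in the ratios of the GATA and cofactor genes was not tested.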

How the data were processed

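RNA from mouse embryonic fibroblasts of 2 genotypes, 1 library each, was made into TruSeq RNA v2 libraries, per the labels' protocols. TopHat2 2.0, DESeq and mm9 are named in the submitters' processing notes. The counter and annotation were not given in the sources used here. For each gene the deposited signal is the authors' average, over A and B, of size-factor-scaled counts. The deposited ratio (fold) and its log2 compare B with A with no pseudocount, and the deposited p-values are the authors' own. The 2 columns of values per condition match no sample's labels and were not used, so no depth per library, counting interval or genotype is given. The planned assignment of conditions to genotypes could not be made.

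Ratios were read at a mean of at least 50, by a log2(B/A) of at least 1 in size or the authors' adjusted p under 0.1. This minimum is set on the mean over A and B, so a gene with a large ratio can still be near 0 in 1 condition. No test was run. Members and lists were chosen with earlier results of these data known. Named genes were the members, up to 4 genes with the largest ratios per list, and the 2 nearest genes on each side. Others, such as Tdg or those at low means, were chosen after their values were seen. In the list of heart and endoderm targets, 1 gene is not reported here, which was decided after its values were seen, so no count or median of that list is given and its plot lacks that gene. Transcript lengths came from GENCODE M21, and promoters, neighbours and overlaps from RefSeq GRCm38.p6, a build other than the authors'. The size rule and trimmed-mean centring were tested on simulated data with counting noise only, in which 200 genes changed well beyond the cut. Those data hold no spread between cultures and no changes near the cut, so they cannot show how the rule performs on unreplicated libraries. Python 3.11.15, pandas 2.3.3 and numpy 2.4.6 were used.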

Additional observations from a re-analysis of the deposited data

How the results depend on the processing

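The count of GATA and cofactor genes meeting the size rule was 3, and it was 4 with no minimum mean (Gata4 added), 4 at a ratio of at least 1.5-fold (Gata6 added) and 0 at a log2(B/A) of at least 2 in size. It was 3 with minimum means of 10 and 200 and with ratios centred on the median or the trimmed mean of all genes. The count under the authors' adjusted p of 0.1 was 0, also 0 under 0.05, and 1 (Gata2) at a raw p under 0.05. The median log2(B/A) of 0.55 became 0.86 with no minimum mean, since Gata4 at a mean of 4.11 then entered, and moved by less than 0.1 under the other 4 settings. Centring shifted every log2 ratio by 0.04, which is less than the smallest ratio of a member in size (0.55) and so could reverse none. Without replicates no library could be left out. The depth per library is not given here, and the means of Gata1, Gata4 and Gata5 were below the minimum.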
